A study of Mus musculus with 6 samples.

Results

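Transcript levels of 6 metabotropic glutamate receptor genes, Grm2, Grm3, Grm4, Grm5, Grm7 and Grm8, were examined in the mouse forebrain after acute water avoidance stress (WAS). The genes were taken by symbol, and each of the 6 matched exactly 1 of the 23282 entries of the count tables. The study used male C57BL/6J mice, 8 to 10 weeks old by its methods, that were killed directly after the procedure. Mice labelled WAS had spent 1 h on a small platform with water around it, and mice labelled control had spent 1 h on the same platform in a dry container. Olfactory bulbs and cerebellum were removed, and RNA of 1 forebrain hemisphere per mouse was sequenced, giving 3 libraries labelled WAS and 3 labelled control. None of the 6 receptor genes differed between the labelled groups beyond the spread of the libraries. Grm2, Grm3 and Grm8 had the largest fitted differences, with folds of 0.787, 0.840 and 0.811 in the libraries labelled WAS relative to those labelled control that were within error, and Grm4, Grm5 and Grm7 had folds between 0.940 and 0.995.

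Metabotropic glutamate receptors are G protein-coupled receptors that respond to glutamate more slowly than the ion channel receptors and adjust how strongly synapses release or respond to it. Group I receptors, of which Grm5 encodes mGlu5, couple to Gq and phospholipase C and sit mainly around the postsynaptic density. Group II receptors, encoded by Grm2 and Grm3, and group III receptors, encoded by Grm4, Grm7 and Grm8 among others, couple to Gi/o, lower cyclic AMP and mainly restrain transmitter release from presynaptic terminals. In the forebrain Grm5 is known for strong expression in striatum, cortex and hippocampus, Grm2 for dentate granule cells and cortex, and Grm3 for astrocytes as well as neurons. Grm7 is widespread at release sites, while Grm4 and Grm8 are more restricted.

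On the GRCm38 (mm10) build, which the submitters' processing notes name, GENCODE M21 places Grm2 on chromosome 9 from 106643095 to 106656082 on the minus strand, a span of 12988 bases. Grm3 lies on chromosome 5 from 9485541 to 9725170 on the minus strand, and Grm4 on chromosome 17 from 27422387 to 27521403 on the minus strand. Grm5 lies on chromosome 7 from 87584168 to 88134907 on the plus strand. Grm7 and Grm8 share chromosome 6, from 110645581 to 111567230 on the plus strand and from 27275119 to 28135178 on the minus strand. Reads come from the ends of transcripts in this assay, so the last 500 bases of each annotated coding transcript were compared with all other GENCODE M21 transcripts. None of the 6 genes had a stretch of 50 bases there in common with another gene. An exon of Gm28111 overlaps the end of Grm2 on the opposite strand, and the sources used here do not say whether strand was used in counting, so that counts of Grm2 are uncertain in this respect.

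The start regions of Grm2, Grm3 and Grm8 are shown because these 3 genes varied most between libraries. Each line gives 250 bases before and 50 after an annotated start, 5′ to 3′ on the strand of the gene, from RefSeq on GRCm38.p6, where 4 of the 6 genes were matched, and the most upstream of the 3 Grm8 starts was used. Capitals mark every match, on either strand, to 1 of 7 motifs searched, and adjoining matches run together. The motifs were the GC box GGGCGG, the E-box CACGTG, the CRE half-site TGACG, the AP-1 motif TGANTCA, the EGR motif GCGTGGGCG, the glucocorticoid response (GRE) motif of GNACA and TGTNC with 3 bases between them, and the TATA motif TATAAA.
Grm2, chr9:106656060-106656359, minus strand: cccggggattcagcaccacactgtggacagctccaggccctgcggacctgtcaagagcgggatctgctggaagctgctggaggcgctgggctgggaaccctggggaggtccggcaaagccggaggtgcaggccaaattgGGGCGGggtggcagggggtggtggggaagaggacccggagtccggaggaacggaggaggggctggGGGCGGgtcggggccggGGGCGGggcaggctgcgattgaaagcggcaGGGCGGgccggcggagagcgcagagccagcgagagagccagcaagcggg
Grm3, chr5:9725303-9725602, minus strand: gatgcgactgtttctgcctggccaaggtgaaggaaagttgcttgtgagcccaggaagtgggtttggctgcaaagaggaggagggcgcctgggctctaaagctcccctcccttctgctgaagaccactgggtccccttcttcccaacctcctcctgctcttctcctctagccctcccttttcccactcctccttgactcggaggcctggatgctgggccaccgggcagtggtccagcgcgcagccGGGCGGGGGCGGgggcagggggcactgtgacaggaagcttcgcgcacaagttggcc
Grm8, chr6:28135097-28135396, minus strand: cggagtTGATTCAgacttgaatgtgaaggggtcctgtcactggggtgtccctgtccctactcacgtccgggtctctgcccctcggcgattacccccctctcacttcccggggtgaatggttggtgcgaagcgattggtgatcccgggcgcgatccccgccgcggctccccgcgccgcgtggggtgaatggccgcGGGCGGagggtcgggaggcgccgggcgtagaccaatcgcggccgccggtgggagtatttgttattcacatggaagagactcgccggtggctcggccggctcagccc
The Grm2 window held 4 GC boxes, the Grm3 window 2 that directly abut, and the Grm8 window 1 together with 1 AP-1 match. A GC box was found in 35.7% of the 32851 promoter windows of the same length in the table and an AP-1 match in 7.81%. Neither the EGR motif, present in 0.612% of all windows, nor the GRE motif, present in 0.475%, was found in these 3 windows, which says only that those letters are absent there.

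The libraries held between 9248520 and 10067053 counts in the group labelled WAS and between 9977945 and 10502029 in the group labelled control. Levels are given as counts scaled to 1e+06 counts of the library total (CPM). The headings of the count columns begin with the letters WC for samples with the WAS label and WS for samples with the control label, letters that the sources used here do not define. Groups follow the sample labels, and exchanged labels would give each direction below the opposite sign. Marker genes showed brain tissue with regional content that differed between libraries. The summed CPM of 8 striatal projection neuron markers was 153 in WAS replicate 1, 376 in WAS replicate 3 and 1976 in WAS replicate 2, against 981 to 1343 in the controls, with Drd2 at 1 count over all libraries. The 7 thalamic markers summed to 558 and 442 CPM in WAS replicates 1 and 3, against 102 to 136 in the other libraries. Choroid plexus markers were low in WAS replicate 1 and control replicate 2, at 40.3 and 15.2 CPM, against 908 to 1225 elsewhere. In bulk tissue, fewer cells of a type and less RNA per cell cannot be told apart.

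The 6 receptor genes spanned a wide range of levels, in CPM of transcript ends and not divided by length, because the method yields about 1 read per transcript end. Grm5 was highest, with a mean of 376.5 CPM over the 6 libraries. Grm3 followed at 86.0 CPM, Grm7 at 55.2 CPM, Grm4 at 42.8 CPM, Grm2 at 18.3 CPM and Grm8 at 17.7 CPM. From Grm5 down to Grm2 the ranges of neighbouring genes over the 6 libraries did not overlap. Grm2 and Grm8 could not be ordered, as Grm2 exceeded Grm8 in only 3 of the 6 libraries. How well each transcript end is annotated and captured can differ between genes, so that the order describes these counts.

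**Figure D1:**
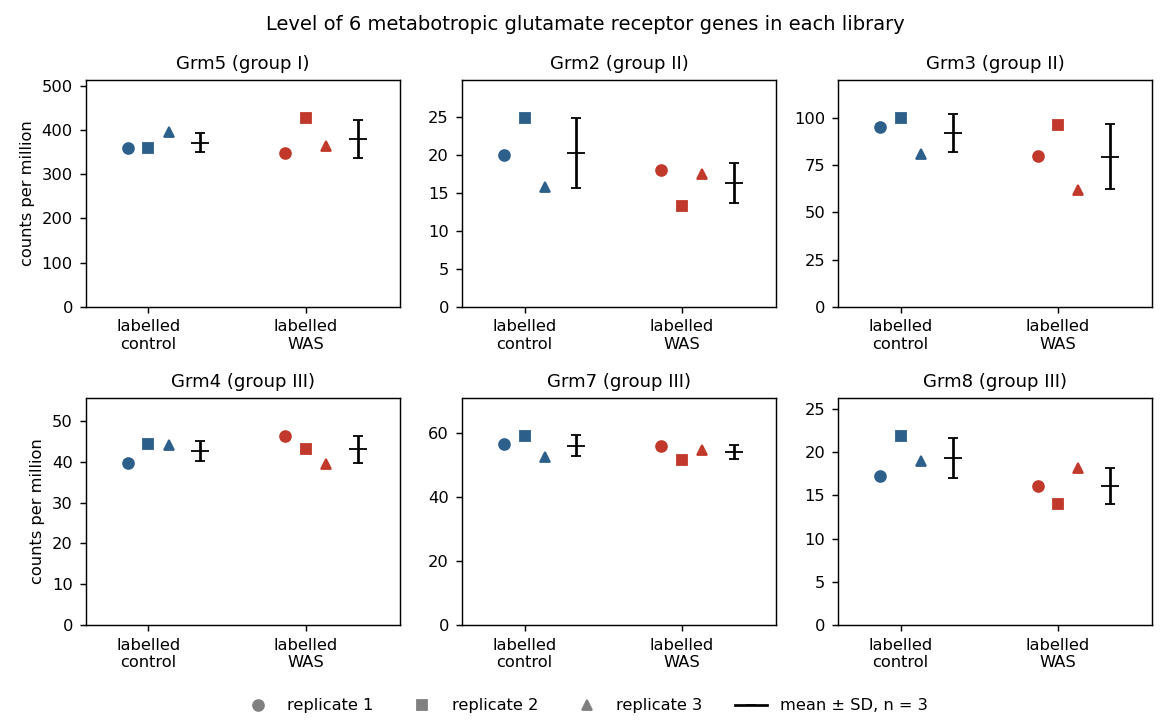
Level of each receptor gene in CPM (vertical axis, from 0) in the 3 libraries labelled control and the 3 labelled WAS, with the mean and SD (n = 3) beside the points and the replicate shown by the shape of the point. The groups overlap for each of the 6 genes, and control replicate 2 holds the highest value of Grm2, Grm3, Grm7 and Grm8.

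Grm5 encodes mGlu5, the Gq-coupled receptor linked to Homer and Shank scaffolds. Its level was 348, 429 and 364 CPM in WAS replicates 1 to 3, and 361, 359.5 and 397 CPM in control replicates 1, 2 and 3. WAS replicates 1 and 2 were the lowest and the highest of all 6 libraries, so the group labelled WAS enclosed the controls. The means were 380.5 ± 43.1 CPM under the WAS label (SD, n = 3) and 373 ± 21.1 CPM under the control label (SD, n = 3). The fitted log2 fold change (log2 ratio) of Grm5, libraries labelled WAS over those labelled control, was -0.01 (standard error 0.10, edgeR quasi-likelihood adjusted p = 0.994). Its 95% interval reached from a fold of 0.858 to 1.15. The sign of this small value turned to plus with scaling to the library total (0.03).

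Grm3 encodes mGlu3, the group II receptor that also responds to the dipeptide N-acetylaspartylglutamate (NAAG). It was at 80.0, 96.7 and 62.1 CPM in WAS replicates 1 to 3, and at 95.3, 100.5 and 81.3 CPM in the control replicates. WAS replicates 1 and 3 lay below the lowest control, while WAS replicate 2 lay between control replicates 1 and 2. The group means were 79.6 ± 17.3 CPM under the WAS label (SD, n = 3) and 92.4 ± 9.94 CPM under the control label (SD, n = 3). The log2 fold change of Grm3 was -0.25 (standard error 0.14, edgeR adjusted p = 0.756), with a 95% interval of the fold from 0.674 to 1.05. This value rested on single libraries. It was -0.42 without WAS replicate 2 (edgeR unadjusted p = 0.00462, adjusted p = 0.0973) and -0.10 without WAS replicate 3. With WAS replicate 2 as the only library of its group, it was 0.03.

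Grm2 encodes mGlu2, the group II autoreceptor of glutamatergic terminals. Its counts were 182, 123 and 175 in WAS replicates 1 to 3 and 210, 259 and 157 in the control replicates, which is 18.1, 13.3 and 17.5 CPM against 20.0, 24.9 and 15.7 CPM. WAS replicate 2 was lowest and control replicate 2 highest, and control replicate 3 fell inside the range of the libraries labelled WAS. The means were 16.3 ± 2.62 CPM under the WAS label (SD, n = 3) and 20.2 ± 4.61 CPM under the control label (SD, n = 3). The log2 fold change of Grm2 was -0.35 (standard error 0.19, edgeR adjusted p = 0.737), the largest of the 6 genes, with a 95% interval of the fold from 0.592 to 1.05. It ranged from -0.49 without control replicate 3 to -0.17 without control replicate 2.

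Grm8 encodes mGlu8, a presynaptic group III receptor with high affinity for glutamate. The counts were 162, 130 and 181 in WAS replicates 1 to 3 and 181, 227 and 189 in the control replicates, or 16.1, 14.1 and 18.1 CPM against 17.2, 21.9 and 18.9 CPM. WAS replicate 3 exceeded control replicate 1, so the groups overlapped by this pair of libraries alone. The means were 16.1 ± 2.04 CPM under the WAS label (SD, n = 3) and 19.4 ± 2.34 CPM under the control label (SD, n = 3). Grm8 had the smallest p of the 6 genes, with a log2 ratio of -0.30 (standard error 0.15, edgeR unadjusted p = 0.0765, adjusted p = 0.724). The 95% interval of the fold ran from 0.641 to 1.03.

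Grm4 and Grm7, the other group III receptors measured, were the steadiest of the family. Grm4, whose protein is best known from presynaptic terminals of the basal ganglia and cerebellum, was at 46.3, 43.1 and 39.6 CPM in WAS replicates 1 to 3 and 39.7, 44.2 and 44.0 CPM in the control replicates. The highest and the lowest value of Grm4 both came from the libraries labelled WAS. Its log2 fold change was -0.03 (standard error 0.11, edgeR adjusted p = 0.976), with a 95% interval of the fold from 0.836 to 1.16 and a plus sign under library total scaling (0.01). Grm7, which encodes the receptor closest to the release machinery, was at 56.1, 51.7 and 54.7 CPM in WAS replicates 1 to 3 and 56.7, 59.2 and 52.7 CPM in the control replicates. The highest of the 6 values of Grm7 exceeded the lowest by only 1.14 times. The log2 fold change of Grm7 was -0.09 (standard error 0.09, edgeR adjusted p = 0.904), with a 95% interval of the fold from 0.817 to 1.08.

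The 6 genes differed in how far their spread between libraries exceeded the counting error, taken as 1 over the square root of the mean count. The coefficient of variation of Grm2 was 22.8% over the controls and 16.0% over the libraries labelled WAS, where counting alone gives 6.92% and 7.91%. For Grm3 it was 10.8% and 21.7%, where counting gives 3.24% and 3.60%. Grm5, with the deepest counts, varied by 5.67% and 11.3% against a counting error of 1.62% and 1.64%. Grm7 varied by 5.77% and 4.18% against 4.16% and 4.35%, close to counting error in both groups, and Grm4 by 5.96% and 7.83% against 4.78% and 4.88%. Grm8 was in between, with 12.1% and 12.7% against 7.09% and 7.96%. Over all 6 libraries, Grm2 varied by 21.8%, more than 93.0% of the 9400 genes tested with at least 10 CPM, whose median was 10.3%. Grm7, at 4.95%, varied more than only 7.66% of these genes. The reads carry no molecular identifiers, so counting error is a lower limit of the technical error.

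**Figure D2:**
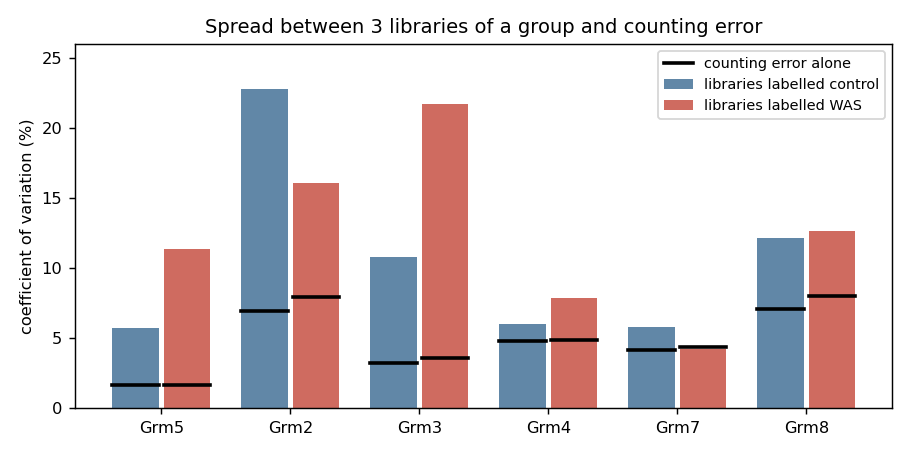
Coefficient of variation in percent (vertical axis) over the 3 libraries labelled control and the 3 labelled WAS for each receptor gene (bars), with the part that counting alone gives (black lines). Grm2 and Grm3 stand highest above their lines, at up to 22.8% and 21.7%, and Grm7 lies near its lines.

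Across the family, 0 of the 6 genes had an adjusted p under 0.05 by edgeR, where 0% of the 15239 genes tested did, and the smallest adjusted p among them was 0.724. At an unadjusted p under 0.05 the count was also 0 of 6 by edgeR, DESeq2 and limma, against 7.24% of all genes by edgeR. With a fold of at least 1.5 in addition, the criteria of the study with its p cutoff, it was 0 of 6. Over all genes it was 2.49% by the edgeR fit used here, which is not the study's own analysis. At an unadjusted p under 0.05 without a fold limit, 3.4% of all genes were lower under the WAS label and 3.85% were higher. Groups that did not overlap in CPM were found for 0 of the 6 genes and for 12.2% of all genes tested, 3.76% lower and 8.42% higher. The fitted values of all 6 genes were below 0, with a median log2 fold change of -0.17, where 49.8% of all genes were below 0 with a median of 0.00. Under scaling to the library total, which moved the median of all genes to 0.04, 4 of the 6 were below 0, since Grm4 and Grm5 changed sign. With 3 libraries per group, the smallest two-sided p that exact permutation of a single value allows is 0.1. The intervals leave room for differences of up to a fold of 0.592 for Grm2, 0.641 for Grm8 and 0.674 for Grm3, whereas those of Grm4, Grm5 and Grm7 end at folds between 0.817 and 1.16.

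**Figure D3:**
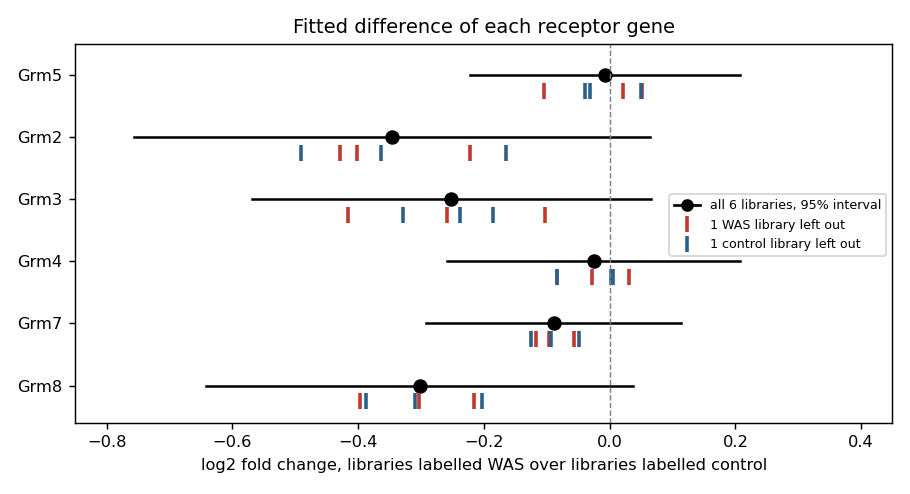
Fitted log2 fold change of each receptor gene (horizontal axis, libraries labelled WAS over those labelled control) with its 95% interval from all 6 libraries, and ticks below for the fits that each left out 1 library. Each interval includes 0, and the ticks of Grm3 spread from -0.42 to -0.10.

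The balance among the receptors was compared as each gene's percent of the summed counts of the 6, a measure that does not depend on how libraries are scaled. Grm5 made up 61.6%, 66.2% and 65.5% of this sum in WAS replicates 1 to 3 and 61.2%, 58.9% and 65.1% in the control replicates. The group II pair Grm2 and Grm3 made up 17.4%, 17.0% and 14.3% under the WAS label, against 19.5%, 20.6% and 15.9% under the control label. The group III genes Grm4, Grm7 and Grm8 together made up 19.3% ± 2.23 (SD, n = 3) under the WAS label and 19.6% ± 0.828 (SD, n = 3) under the control label. The ranges of the labelled groups overlapped for each of these shares. The summed level of the 6 genes was 590 ± 50.9 CPM under the WAS label (SD, n = 3) and 603 ± 11.4 CPM under the control label (SD, n = 3). Within group II, Grm3 exceeded Grm2 by 7.27 times in WAS replicate 2 and by 3.54 to 5.17 times in the other 5 libraries.

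The genes did not vary in parallel from library to library. Grm2 and Grm7 ranked the 6 libraries in the same order, from WAS replicate 2 as the lowest through control replicate 3, WAS replicate 3, WAS replicate 1 and control replicate 1 to control replicate 2 as the highest. Grm8 shared the lowest and the highest library with them. In WAS replicate 2, where Grm2, Grm7 and Grm8 were lowest, Grm5 was highest and Grm3 second highest. Grm5 was lowest in WAS replicate 1 and Grm3 and Grm4 in WAS replicate 3.

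Markers of cell types and regions moved with some of these values. The 5 general neuron markers summed to 5637, 6074 and 5763 CPM in WAS replicates 1 to 3. In the control replicates the sum was 6360, 6863 and 6109 CPM, without overlap of the groups. Of single genes, 3.76% did not overlap in this direction. By edgeR, 2 of the 5 markers had an unadjusted p under 0.05, with a median log2 fold change of -0.24 over the list. At this threshold the share over all genes was 7.24%. The summed level of 8 markers of cortical and hippocampal excitatory neurons was 4961, 6312 and 4490 CPM in WAS replicates 1 to 3 and 6668, 7505 and 6130 CPM in the control replicates, and 4 of these 8 markers had an unadjusted p under 0.05 by edgeR. Nrgn, at 3752 to 6556 CPM, made up most of this sum. WAS replicates 1 and 3 were the lowest libraries and control replicate 2 the highest for both Grm3 and the sum, and this held for the other 7 markers without Nrgn. In those 7, WAS replicate 2 lay below every control, which it did not for Grm3. The 7 astrocyte markers, the other main source of Grm3 known, summed to 4240 to 4370 CPM under the WAS label and 4243 to 4269 CPM under the control label. Slc1a2 made up most of this sum, and 2 of the other markers, Aqp4 and Aldoc, were higher at an unadjusted p under 0.05 by edgeR, with log2 ratios of 0.36 and 0.22 where the median of the list was 0.18. Grm5 was lowest in WAS replicate 1 and highest in WAS replicate 2, the libraries with the lowest and the highest sum of striatal markers, although that sum differed between them far more than Grm5 did. For Grm2, 4 dentate granule cell markers summed to 122 to 162 CPM in the libraries labelled WAS and 106 to 136 CPM in those labelled control. Calb1, at 76.7 to 113 CPM, made up most of this sum, and the median log2 fold change of the list was 0.86. C1ql2 ran from 3.47 CPM in control replicate 2 to 67.2 CPM in WAS replicate 1. Dsp ran from 0.674 CPM in control replicate 2 to 8.94 CPM in WAS replicate 1. Prox1 ran from 2.91 CPM in control replicate 3 to 9.34 CPM in WAS replicate 1. The cerebellar markers, which bear on Grm4, summed to 34.0 to 39.2 CPM and 35.7 to 41.0 CPM, and the olfactory bulb markers to 4.91 to 6.66 CPM and 5.11 to 9.12 CPM. The part of cell type and regional content in the receptor values was not tested.

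**Figure D4:**
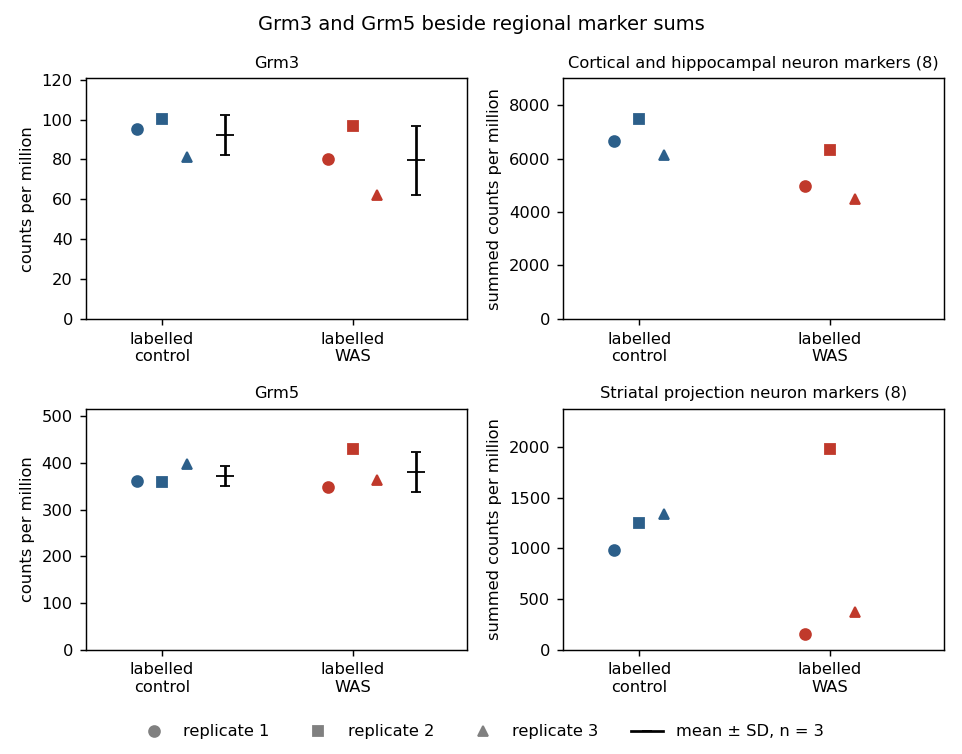
Grm3 and Grm5 in CPM (left panels) beside the summed CPM of 8 cortical and hippocampal and 8 striatal neuron markers (right panels) in each library, all axes from 0, with mean and SD (n = 3) for the receptor genes. WAS replicates 1 and 3 are lowest for both Grm3 and the cortical and hippocampal sum, and WAS replicate 2 is highest for both Grm5 and the striatal sum.

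Genes with the most similar pattern were sought for the 3 receptors whose highest and lowest library differed by at least 0.5 on the log2 scale. The measure was the root mean square difference of centred log2 CPM (0.5 added) over 6 libraries, among 9399 other genes of at least 10 CPM. For Grm3, 2010111I01Rik and Atp2b1 were among the 3 closest, with differences of 0.057 and 0.062 where Grm3 itself varied by 0.235 around its mean. For Grm2 they were Sidt1, Polg and Map3k3, at 0.088, 0.099 and 0.106 where Grm2 varied by 0.274. For Grm8 they were Stau2, Nnt and Ctdspl2, at 0.047, 0.058 and 0.065 where Grm8 varied by 0.192. Over only 6 libraries and so many candidates, close matches are found for most patterns, and these are a description.

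The genes through which the receptors act were grouped into 4 lists with 61 genes, all tested. At an unadjusted p under 0.05, 3 of them were higher and 10 were lower under the WAS label, which is 21.3% of them where 7.24% of all genes were so called. None passed an adjusted p of 0.05 by edgeR, DESeq2 or limma with all libraries, and 8 did by edgeR without WAS replicate 2, where 491 of all 15246 genes tested did. The median log2 fold change of the 61 genes was -0.09, with 41 below 0. Scaled to the library total, the split was 5 higher and 6 lower, where all genes gave 831 higher and 337 lower. Without WAS replicate 1 and control replicate 2 it was 1 higher and 2 lower, where all genes gave 324 higher and 351 lower. Named next are genes with an unadjusted p under 0.05, of which those outside the naming rule were chosen after their values were seen, and abundant or related genes given by level. The summed cortical and hippocampal markers and the 5 general neuron markers given above were also low in libraries labelled WAS, and their part in these counts was not tested.

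In the Gq branch, which carries signals of group I receptors, 1 of 21 genes was higher and 5 were lower at an unadjusted p under 0.05. Over all genes, 3.85% were higher and 3.4% lower at this threshold. Itpr1, the inositol trisphosphate receptor that releases calcium, was at 261 ± 91.1 CPM under the WAS label (SD, n = 3) against 365 ± 19.7 CPM under the control label (SD, n = 3), a log2 ratio of -0.52 (standard error 0.18, edgeR adjusted p = 0.585). Plcb1, the phospholipase C that makes inositol trisphosphate, was at 340 ± 82.0 CPM against 430 ± 29.3 CPM, a log2 ratio of -0.38 (standard error 0.14, edgeR adjusted p = 0.625). In both genes WAS replicate 2, with 3386 and 4018 counts, stood above the other libraries labelled WAS, with 2043 and 2139 counts of Itpr1 and 3053 and 2831 of Plcb1. Without it the log2 fold changes of Itpr1 and Plcb1 were -0.85 and -0.59, with adjusted p by edgeR of 7.1e-05 and 0.00202. With it as the only library under the WAS label, a set chosen after seeing the data, they were -0.04 and -0.03. The unadjusted p of both genes by edgeR was above 0.05 when WAS replicate 1 or 3 or control replicate 2 was omitted. With all libraries, DESeq2 gave Itpr1 an unadjusted p of 0.0744. Prkca, a protein kinase C gene, had a log2 ratio of -0.20 and groups that did not overlap, but its unadjusted p was above 0.05 with library total scaling (0.0729), with limma (0.0564) and by edgeR with any 1 library other than WAS replicate 2 left out (up to 0.103). Trpc1, a cation channel gene opened downstream of these receptors, met the study's criteria in the edgeR fit used here. It had only 7, 4 and 8 counts under the WAS label against 11, 15 and 20 under the control label. Trpc1 is not in the study's own list of changed genes. Its unadjusted p was above 0.05 with DESeq2 (0.0660) and without WAS replicate 1 or 2 or control replicate 2 or 3 (edgeR p from 0.0541 to 0.125). The scaffold genes Homer1 and Homer3, which tie mGlu5 to its partners, were the other called genes, both with groups that did not overlap. Homer1 was lower, with a log2 ratio of -0.42 (standard error 0.13, edgeR adjusted p = 0.562). It was at -0.60 to -0.29 with 1 library left out, and -0.12 with WAS replicate 2 as the only library under the WAS label. Homer3 was higher, at 0.41 (standard error 0.13, edgeR adjusted p = 0.570), and at 0.33 to 0.47 with 1 library left out. The study reports no apparent change in homer. The most abundant genes of the branch were Prkcb, at 2367 ± 557 CPM under the WAS label (SD, n = 3) and 2852 ± 315 CPM under the control label (SD, n = 3), and Ncdn, at 802 ± 81.2 CPM and 760 ± 109 CPM.

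In the Gi/o branch, which serves group II and III receptors, 20 genes were tested. At an unadjusted p under 0.05 by edgeR, 0 were higher and 3 lower, where 3.85% and 3.4% of all genes were. None had an adjusted p under 0.05. Adcy2 and Adcy1 encode adenylyl cyclases, the enzymes that Gi/o-coupled receptors restrain. Adcy2 had counts of 586, 558 and 514 in WAS replicates 1 to 3 and 765, 723 and 636 in the control replicates, without overlap of the groups, and a log2 ratio of -0.32 (standard error 0.10, edgeR adjusted p = 0.539). Adcy1 was at -0.27 (standard error 0.11) and Kcnj3, a subunit of the potassium channel opened by Gi/o, at -0.24 (standard error 0.10), both with overlapping groups and with an unadjusted p above 0.05 by edgeR under library total scaling (0.0626 and 0.0870). The unadjusted p of edgeR was also above 0.05 for both genes when WAS replicate 3 or either of control replicates 1 and 2 was omitted (up to 0.148 for Adcy1 and 0.193 for Kcnj3), without WAS replicate 2 for Adcy1 (0.0827), and for Kcnj3 the unadjusted p of limma was 0.0761. Gnao1, which encodes the main neuronal G protein subunit of this branch, was at 1435 ± 105 CPM under the WAS label (SD, n = 3) and 1482 ± 64.2 CPM under the control label (SD, n = 3). Gnb1, a beta subunit gene, was at 906 ± 24.9 CPM and 884 ± 43.9 CPM.

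Of 15 genes of receptor partners and desensitization, 2 were lower at an unadjusted p under 0.05, where 3.4% of all genes were. Rgs4, which shortens signals of Gq and Gi/o, was at 528 ± 174 CPM under the WAS label (SD, n = 3) and 743 ± 49.1 CPM under the control label (SD, n = 3). Its counts were 4376, 6738 and 4211 against 7875, 8186 and 6895, with WAS replicate 2 again nearest the controls. The log2 fold change of Rgs4 was -0.53 (standard error 0.18, edgeR adjusted p = 0.582), and -0.83 with an adjusted p of 7.1e-05 when WAS replicate 2 was left out. With all libraries, the unadjusted p of DESeq2 was 0.0563 for Rgs4. The log2 ratio was -0.39 without WAS replicate 3 (edgeR unadjusted p = 0.0526). It was -0.07 with WAS replicate 2 as the only library under the WAS label, a set chosen after seeing the data. Elfn2, a synaptic adhesion protein that binds group III receptors across the cleft, had 629, 514 and 615 counts under the WAS label against 689, 690 and 716 under the control label, and a log2 ratio of -0.22 (standard error 0.09, edgeR adjusted p = 0.671), with an unadjusted p of 0.0755 under library total scaling and 0.0683 with DESeq2. Rgs2 was at 178 ± 33.1 CPM against 180 ± 22.5 CPM (SD, n = 3 each).

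Of 5 genes that set NAAG and glutamate outside the synapse, 2 were higher at an unadjusted p under 0.05. The share over all genes was 3.85%. Rimkla encodes an enzyme that makes NAAG, the peptide ligand of mGlu3. Its counts were 116, 60 and 102 in WAS replicates 1 to 3 and 43, 47 and 58 in control replicates 1 to 3. Each library labelled WAS exceeded each control in CPM, as for 8.42% of all genes tested. The level was 9.41 ± 2.61 CPM (SD, n = 3) against 4.81 ± 0.894 CPM (SD, n = 3), a log2 ratio of 0.93 (standard error 0.26, edgeR adjusted p = 0.514). Leaving out each library gave 0.76 to 1.14, and the adjusted p of edgeR was 0.0200 without WAS replicate 2. With WAS replicate 2 as the only library under the WAS label, a set chosen after seeing the data, the log2 ratio of Rimkla was 0.39. Thalamic markers were also highest in WAS replicates 1 and 3. The summed level of 5 midbrain dopamine neuron markers was 99.7, 50.8 and 139 CPM in WAS replicates 1 to 3. In the control replicates it was 45.4, 40.9 and 39.5 CPM, so these groups did not overlap either. By edgeR, 4 of the 5 had an unadjusted p under 0.05, where 7.24% of all genes did. The part of thalamic and midbrain content in the Rimkla values was not tested. Rimklb, the second NAAG synthetase gene, was at 21.1 ± 5.34 CPM against 15.5 ± 1.61 CPM (SD, n = 3 each). Slc7a11, the cystine and glutamate exchanger, was at 45.8 ± 6.70 CPM against 37.2 ± 1.54 CPM (SD, n = 3 each), a log2 ratio of 0.26 (standard error 0.12, edgeR adjusted p = 0.685). The log2 ratio of Slc7a11 was 0.13 without WAS replicate 3 (edgeR unadjusted p = 0.261), and its unadjusted p was above 0.05 with DESeq2 (0.0717) and by edgeR without any 1 of the controls (up to 0.119).

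**Figure D5:**
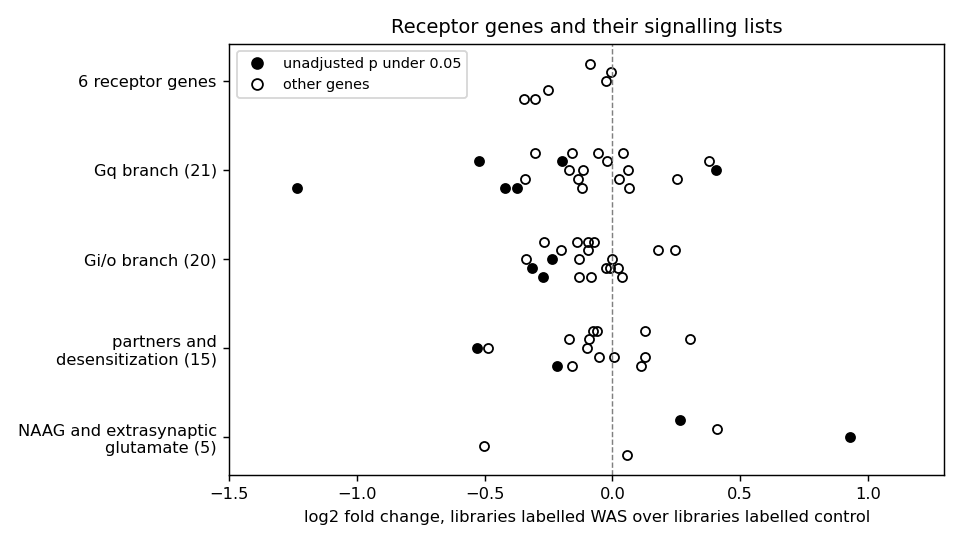
Log2 fold change (horizontal axis, libraries labelled WAS over those labelled control) of the 6 receptor genes and of the 61 genes of 4 signalling lists, 1 point per gene, filled where the unadjusted p of edgeR was under 0.05. The receptor genes have 0 filled points, the 4 lists 13.

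The ionotropic glutamate receptors, the closest other receptor genes, were set beside the family. Of 9 AMPA and kainate receptor subunit genes tested, 4 were above 0 with a median log2 fold change of -0.06, and 1 was higher and 1 lower at an unadjusted p under 0.05 by edgeR. Of 6 NMDA receptor subunit genes tested, 2 were above 0 with a median of -0.04, and 1 was higher at that threshold, which 3.85% of all genes passed as higher and 3.4% as lower. The difference of these lists from the metabotropic receptors was not tested. Grm6, a group III receptor gene known from the retina, had 1 count in WAS replicate 2 and 0 in the other 5 libraries, where 3 counts is the limit that a count of 0 allows.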

How the data were processed

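QuantSeq 3′ mRNA-Seq libraries from 1 forebrain hemisphere of 3 mice labelled WAS and 3 labelled control were analysed, 1 library per mouse. The deposited values are raw read counts per gene symbol. The authors made them by aligning single-end reads with Bowtie2 and counting unique and multiple alignments with Bedtools, and the quantile normalization they describe is not in these files. The annotation they counted on and the tool versions are not given in the sources used here. Depth lay between 9248520 and 10502029 counts per library.

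Levels are counts divided by the library total (CPM). Differences were assessed in edgeR 4.0.16 (R 4.3.3; quasi-likelihood F-test) after TMM scaling (factors 0.976 to 1.01), with the labelled group as the only term, on 15239 genes whose mean log2(quantile-normalized count + 1) was at least 2. Adjusted p-values are Benjamini-Hochberg over these genes. Standard errors are the log2 fold change over the square root of F, and 95% intervals use the residual degrees of freedom of the fit. The fit was tested on simulated data. The labels call the samples biological replicates and share replicate numbers between groups. Alternatives were 2 other scalings, DESeq2 1.42.0, limma 3.58.1 on quantile-normalized log2 counts, 2 other filters, a replicate block, each library left out, and 2 sets of libraries left out that were chosen after seeing the data.

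The receptor genes and all gene lists were chosen with earlier results of these data known. Named were the 6 receptor genes, Grm6 by level, the 2 most abundant genes of each signalling list and those with an unadjusted p under 0.05 and a fold of at least 1.5, and the 3 genes most alike in pattern for receptors varying by at least 0.5 on the log2 scale. Some genes that this rule gives are not reported here.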

Additional observations from a re-analysis of the deposited data

How the results depend on the processing

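No receptor gene passed an adjusted p of 0.05 in any of its 15 alternatives, and the adjusted p stayed between 0.0973 (Grm3 without WAS replicate 2) and 0.9998. Grm2, Grm7 and Grm8 kept a value below 0 in all 15, from -0.64 to -0.17, -0.16 to -0.05 and -0.50 to -0.20. Grm3 turned to 0.026 without WAS replicates 1 and 3. Grm4 turned to 0.0122 with library total scaling and to 0.0083 without Rn45s in the total, and ranged from -0.0843 to 0.0306 with 1 library left out. Grm5 turned to 0.0301 and 0.0245 with these scalings, to 0.0231 with limma, to 0.164 without WAS replicates 1 and 3 and to 0.0238 without WAS replicate 1 and control replicate 2, and ranged from -0.104 to 0.0507 with 1 library left out. Apart from 0.164, which exceeded its standard error of 0.111, these values above 0 lay within the standard errors of their fits. The cause was not tested.

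Genes with an adjusted p under 0.05 numbered 22 with DESeq2, 49 with the replicate block and 1 without WAS replicates 1 and 3, and 0 to 491 with 1 library left out, the highest without WAS replicate 2. Applied to these fits, the study's criteria gave 264 to 825 genes with 1 library left out. An unadjusted p under 0.05 gave 623 to 2084. Without WAS replicate 1 and control replicate 2 the counts were 260 and 675. Of all genes called at an unadjusted p under 0.05, 53.1% were higher, and 71.1% were with library total scaling. Receptor genes lower at an unadjusted p under 0.05 numbered 1 with the replicate block (Grm3, unadjusted p 0.0155, adjusted p 0.369), 2 without WAS replicates 1 and 3, and 0 to 1 with 1 library left out. Signalling genes higher at that threshold numbered 5 with library total scaling, 1 without WAS replicate 1 and control replicate 2, and 2 to 5 with 1 library left out. Those lower numbered 6 with either total scaling, 5 and 2 without the paired sets of libraries, and 4 to 12 with 1 library left out. With Rn45s out of the total, the mean CPM was 45.4 for Grm4 and 396.9 for Grm5 in the controls, and 57.5 and 59.8 for Grm7 in the libraries labelled WAS and control.

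Same-numbered libraries of the 2 groups are different mice. Their deviations from the group means correlated by 0.078, 0.099 and 0.093 over genes, and each library correlated best with its own number. The main fit has no replicate block, and what a block changed is given above. Whether same-numbered libraries shared a processing step is not stated in the sources used here and was not tested. Counting error was largest for Grm2 and Grm8, at 7.91% and 7.96% for the mean counts under the WAS label. Pairs of libraries labelled WAS differed by 0.291 to 0.394 (root mean square of log2 CPM over genes) and pairs labelled control by 0.213 to 0.261. WAS replicates 1 and 3 were each at 0.291 or more from every other library, and WAS replicate 2 was at 0.233 to 0.245 from the controls.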
